A study of Mus musculus with 6 samples.

Results

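The GIMAP genes encode GTPases of immunity-associated proteins, a family of guanine nucleotide binding proteins that lie side by side in the genome and are expressed mainly in lymphocytes. The 8 mouse genes examined here, Gimap1, Gimap3, Gimap4, Gimap5, Gimap6, Gimap7, Gimap8 and Gimap9, were taken by name as the array rows whose platform annotation gives exactly 1 of these symbols. All 8 were found, each on 1 row, among 19935 genes measured. The family shares an AIG1-type GTP binding domain related to that of the septins, and several members are anchored in membranes of lysosomes, mitochondria or the Golgi and endoplasmic reticulum. Loss of single members, above all of Gimap5 and Gimap1, is known to shorten the life of mature T cells, and binding to BCL2 family proteins has been described for some of them.

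The cells were CD4+CD62L- T cells from mouse lymph nodes, described in the labels as resting, sorted by flow cytometry and left untreated. The 3 Dicer WT samples came from animals with both Dicer alleles floxed and no CD4Cre, and the 3 Dicer KO samples from animals with the same floxed alleles and CD4Cre, in which Cre is driven by the Cd4 promoter and acts from the thymus onward. Controls therefore carry the floxed alleles too, and Cre itself differs between the groups along with Dicer. The labels give neither age nor sex. Dicer cuts microRNA precursors into mature microRNAs, and the comparison asks how its loss from CD4 T cells alters their transcripts. Each sample was hybridised to 1 MoGene 1.0 ST array, and the series' design text calls the samples biological replicates.

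The deposited values are log values, read as log2, centred so that the median of each row over the 6 arrays is 0. They show how the arrays differ within a gene and say nothing directly about how much of 1 gene there is compared with another. A coarse level can still be read from the rounding of the stored numbers, which becomes coarser from a log2 level of 8 upward. By this measure 17.8% of all rows, 90.3% of 216 ribosomal protein rows and 3.09% of 1035 olfactory receptor rows were in the higher class. So were 6 of the 8 Gimap genes, while Gimap5 and Gimap7 had at least 1 array below it. All 10 T cell markers examined, Cd4 and Cd3e among them, were in the higher class, against 1 of 11 B cell markers, and 10 of 10 myeloid and 7 of 7 natural killer cell markers were in the lower class. The class can be wrong for a single row. The row of Dicer1 differed by 0.02 ± 0.09 (SE) on the log2 scale (limma adjusted p = 0.949). Its probes may lie outside the deleted exons, so it checks nothing, and the genotypes rest on the labels. On the second principal component, with 21.2% of the variance, Dicer WT 3 and Dicer KO 3 lay at -14.1 and -10.5 and the other 4 arrays between -1.89 and 10.2.

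In the RefSeq gene table the cluster lies on chromosome 6 and runs in the order Gimap8, Gimap9, Gimap4, Gimap6, Gimap7, Gimap1, Gimap5 and Gimap3. Because all of its genes had positive genotype differences, the sequence at their start sites is shown for 4 of them. Each window holds the 250 bases before and the 50 bases after an annotated start, 5′ to 3′ in the direction of the gene, from RefSeq with build GRCm38.p6. Gimap4 (chr6:48684328-48684627, plus strand) and Gimap7 (chr6:48718371-48718670, plus strand) are shown for having the largest differences. Gimap6 (chr6:48708195-48708494, minus strand) and Gimap3 (chr6:48770802-48771101, minus strand) are shown because, like Gimap7, their windows hold a STAT-type sequence. Capitals mark matches to any of 6 motifs searched on both strands.
Gimap4: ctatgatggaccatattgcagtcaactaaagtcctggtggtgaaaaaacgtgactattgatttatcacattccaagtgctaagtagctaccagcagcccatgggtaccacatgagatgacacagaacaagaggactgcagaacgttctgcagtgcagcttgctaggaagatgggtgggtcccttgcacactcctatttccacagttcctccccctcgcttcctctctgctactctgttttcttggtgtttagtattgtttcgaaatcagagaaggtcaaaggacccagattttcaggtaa
Gimap7: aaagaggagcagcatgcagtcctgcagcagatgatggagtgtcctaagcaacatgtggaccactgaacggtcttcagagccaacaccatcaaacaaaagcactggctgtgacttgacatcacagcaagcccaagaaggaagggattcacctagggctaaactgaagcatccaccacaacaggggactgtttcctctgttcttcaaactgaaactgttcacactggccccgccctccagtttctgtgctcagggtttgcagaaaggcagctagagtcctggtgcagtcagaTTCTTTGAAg
Gimap6: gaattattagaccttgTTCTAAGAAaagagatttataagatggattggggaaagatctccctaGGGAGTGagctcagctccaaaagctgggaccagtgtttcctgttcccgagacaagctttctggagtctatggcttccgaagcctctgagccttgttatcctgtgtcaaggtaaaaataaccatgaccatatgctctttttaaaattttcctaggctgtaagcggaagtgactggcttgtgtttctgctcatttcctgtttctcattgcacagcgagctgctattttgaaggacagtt
Gimap3: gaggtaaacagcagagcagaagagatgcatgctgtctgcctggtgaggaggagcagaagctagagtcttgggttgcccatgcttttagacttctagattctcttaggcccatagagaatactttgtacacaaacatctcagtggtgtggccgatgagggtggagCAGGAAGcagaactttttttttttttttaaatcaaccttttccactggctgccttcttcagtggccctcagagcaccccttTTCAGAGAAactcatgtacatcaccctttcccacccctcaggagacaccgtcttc

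The motifs were a core of the interferon response element (GAAANNGAA), the STAT binding GAS element (TTCNNNGAA), and short ETS (CAGGAAG), RUNX (TGTGGTT), KLF (GGGNGTG) and TCF or LEF (CTTTGAA) sequences. The GAS-type sequence was in 4 of the 9 Gimap windows (Gimap8 has a pair of annotated starts), those of Gimap3, Gimap6, Gimap7 and Gimap8, and in 8.30% of 32851 windows of the same length over all genes. The match is TTCTAAGAA at position -234 from the start of Gimap6, TTCTTTGAA at 40 in Gimap7, TTCAGAGAA at -5 in Gimap3 and TTCCTAGAA at -47 from one start of Gimap8. In Gimap7 it overlaps the TCF or LEF sequence. The ETS sequence was in 3 Gimap windows, those of Gimap3, Gimap5 and Gimap9, and in 13.3% of all windows. The KLF sequence was in 2, those of Gimap5 and Gimap6, against 29.2% of all windows, and the TCF or LEF sequence in 1 against 5.14%. The interferon core and the RUNX sequence, present in 8.56% and 5.27% of all windows, had no match in the Gimap windows. Gimap4, with the largest genotype difference, had none of the 6 sequences in its window, nor had Gimap1. The Gimap windows held 2 to 8 CpG dinucleotides, against a median of 7 and an upper quartile of 20 over all windows. Such matches describe letters and do not show that a factor binds.

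Every Gimap gene had a higher mean in Dicer KO than in Dicer WT, and 5 of the 8 rose by the test. These were Gimap4, Gimap7, Gimap6, Gimap1 and Gimap9. The differences ran from 0.33 to 0.93 on the log2 scale, or 1.26-fold to 1.90-fold, with a median of 0.44 where the median over all genes was -0.01. The test was limma's moderated test fitted over all 19935 genes, with Benjamini-Hochberg adjustment and a threshold of 0.05 on the adjusted p. By it 5.94% of all genes were higher in Dicer KO and 2.79% lower. Among the genes of the higher level class, to which 6 of the Gimap genes belong, the median difference was 0.10 and 19.5% were called higher. For 6 of the Gimap genes every Dicer KO array lay above every Dicer WT array, which held for 13.5% of all genes. In bulk RNA of a sorted population, more cells carrying a transcript and more transcript per cell cannot be told apart.

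**Figure D1:**
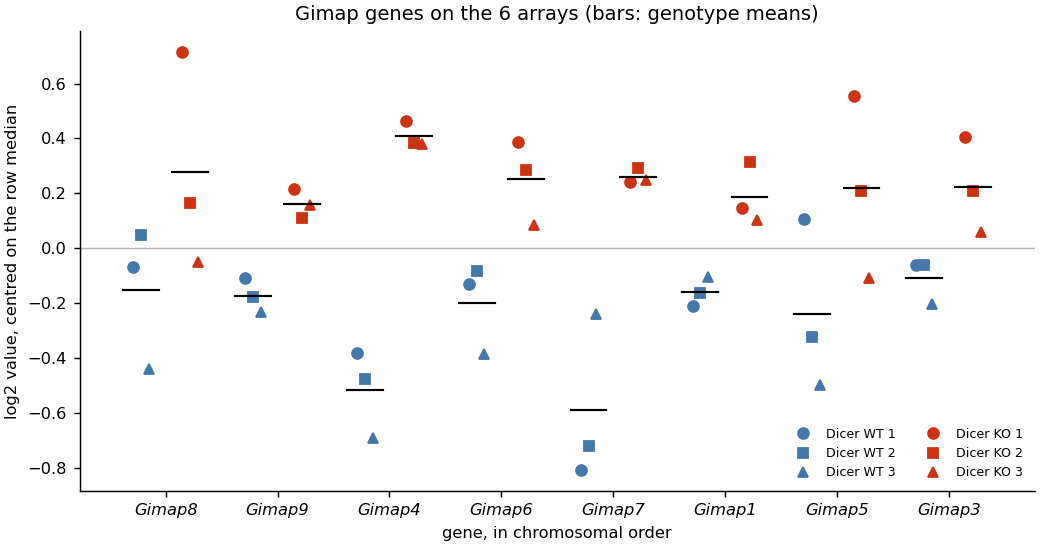
Log2 values centred on the row median (vertical axis) for each Gimap gene in chromosomal order (horizontal axis), with 1 point per array, blue for Dicer WT and red for Dicer KO, marker shape for the sample number and bars for the genotype means. Red points lie above all blue points for 6 genes; in Gimap5 and Gimap8 the genotypes overlap.

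Gimap4, whose product has been linked to the pace of T cell death, showed the largest difference. Its Dicer WT arrays read -0.38, -0.48 and -0.69 and its Dicer KO arrays 0.46, 0.38 and 0.38 (centred log2 values). The genotypes were separated by more than the spread within either, with SDs of 0.16 in Dicer WT and 0.05 in Dicer KO. The difference was 0.93 ± 0.08 (SE, n = 3 per genotype), or 1.90-fold, with a limma adjusted p of 0.00163. Only 0.637% of all genes had a larger positive difference. Of the Gimap genes, Gimap4 and Gimap9 were the ones called with each array left out in turn, Gimap4 with adjusted p of 0.00151 to 0.0129.

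Gimap7, a GTPase that is active as a dimer, came next. Its values were -0.81, -0.72 and -0.24 in Dicer WT and 0.24, 0.29 and 0.25 in Dicer KO. The Dicer KO arrays were tightly grouped (SD 0.03), whereas Dicer WT 3 stood well above the other Dicer WT arrays (SD 0.31). The difference was 0.85 ± 0.14, or 1.80-fold (limma adjusted p = 0.0124). It was 1.03 without Dicer WT 3 (adjusted p = 0.00096), but Gimap7 was not called when Dicer KO 2 was left out (0.84, adjusted p = 0.0611).

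Gimap9 had a smaller but even difference. Its Dicer WT arrays read -0.11, -0.18 and -0.23 and its Dicer KO arrays 0.22, 0.11 and 0.16. The genotypes did not overlap and each was tight, with SDs of 0.06 and 0.05. The difference of 0.33 ± 0.06, or 1.26-fold, had a limma adjusted p of 0.0134, and of 0.0317 to 0.0499 with 1 array left out.

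Gimap1, which is needed for the survival of mature T and B cells, differed by nearly the same amount. Its Dicer WT samples gave -0.21, -0.16 and -0.10 and its Dicer KO samples 0.15, 0.31 and 0.10. The genotypes did not overlap, and Dicer KO 2 was the highest array. The difference was 0.35 ± 0.07, or 1.27-fold (limma adjusted p = 0.0246). Leaving out any of 4 arrays, numbers 1 and 2 of either genotype, ended the call at adjusted p values of 0.0511 to 0.0952.

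Gimap6, which binds the autophagy protein GABARAPL2, was close to the threshold. Its Dicer WT arrays read -0.13, -0.08 and -0.38 and its Dicer KO arrays 0.39, 0.28 and 0.08. Dicer WT 3 was the lowest array and Dicer KO 3 the lowest of its genotype, and the genotypes did not overlap. The difference was 0.45 ± 0.11, or 1.37-fold (limma adjusted p = 0.0447). With single arrays omitted the call held for Dicer KO 3 (adjusted p = 0.0349) and was lost for each of the remaining 5 (0.0708 to 0.153). Of the 8 genes it lay closest to the family's mean profile, with a root mean square distance of 0.08 over the 6 arrays.

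Gimap3, which encodes a membrane protein closely related to that of Gimap5, did not pass. Its Dicer WT arrays read -0.06, -0.06 and -0.20 and its Dicer KO arrays 0.40, 0.21 and 0.06, so the genotypes did not overlap. The difference was 0.33 ± 0.09, or 1.26-fold (limma adjusted p = 0.0769). Without Dicer KO 3, the lowest Dicer KO array, it was 0.42 and the adjusted p 0.0395.

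Gimap5, whose loss causes lymphopenia in rats and mice, gave a difference of 0.46 ± 0.20 that did not pass (limma adjusted p = 0.25). Values were 0.11, -0.32 and -0.50 in Dicer WT and 0.56, 0.21 and -0.11 in Dicer KO. The genotypes overlapped: Dicer WT 1 was above Dicer KO 3. The SDs were 0.31 and 0.33. The 95% confidence interval of the difference ran from -0.02 to 0.93 and thus holds 0. With single arrays omitted the adjusted p was 0.125 to 0.496.

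Gimap8, the member with several GTP binding domains in 1 protein, was as variable. Its Dicer WT arrays read -0.07, 0.05 and -0.44 and its Dicer KO arrays 0.71, 0.17 and -0.05. Dicer WT 2 was above Dicer KO 3, and Dicer KO 1 was far above the other arrays. The difference was 0.43 ± 0.21 (limma adjusted p = 0.298), with a 95% confidence interval of -0.06 to 0.92. Without Dicer KO 1 it was 0.21 and without Dicer KO 3 0.59, and the adjusted p was 0.154 or more with any array left out.

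**Figure D2:**
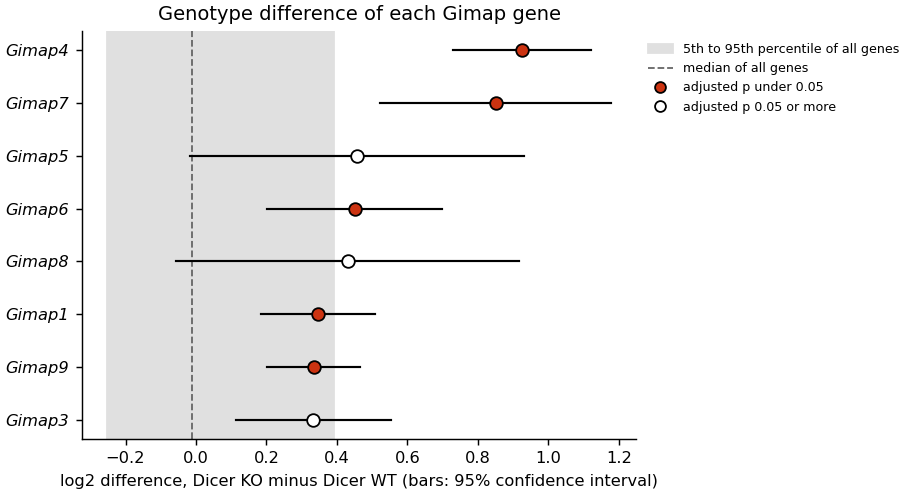
Log2 difference between Dicer KO and Dicer WT (horizontal axis) for each Gimap gene (vertical axis), with 95% confidence intervals; filled points passed an adjusted p of 0.05, the grey band spans the 5th to 95th percentile of the differences of all genes and the dashed line is their median. All 8 points lie to the right of the median, and Gimap5, Gimap6, Gimap8, Gimap7 and Gimap4 lie beyond the 95th percentile of 0.39.

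**Figure D3:**
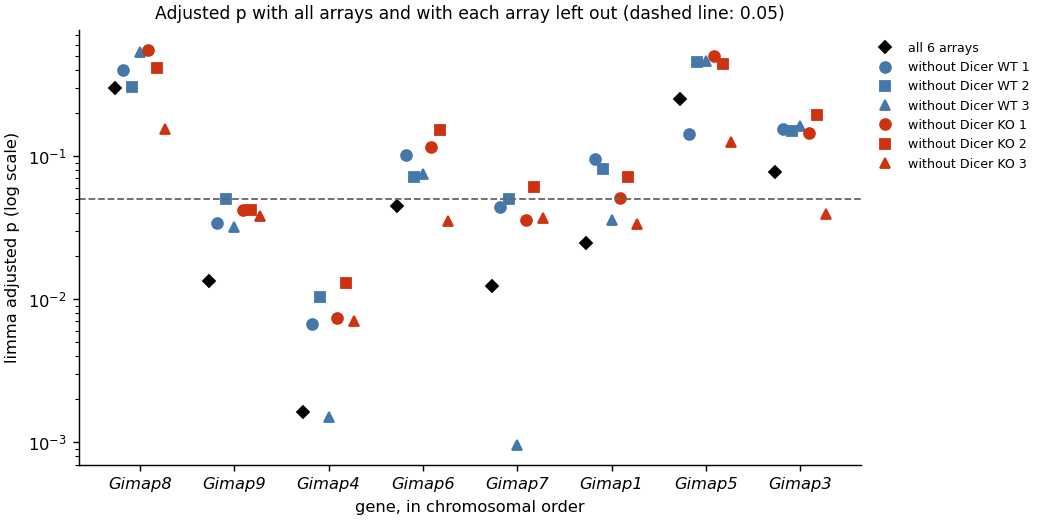
Limma adjusted p on a log axis (vertical) for each Gimap gene (horizontal) with all 6 arrays (black) and with each array left out (blue for Dicer WT, red for Dicer KO). Gimap4 and Gimap9 stay under the dashed line at 0.05 throughout, Gimap7 rises to 0.0611 without Dicer KO 2, and Gimap5 and Gimap8 stay above it.

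The order of the differences from high to low was Gimap4, Gimap7, Gimap5, Gimap6, Gimap8, Gimap1, Gimap9 and Gimap3. From Gimap5 down to Gimap3 the differences lay within 0.12 of each other, less than the SE of 0.20 of Gimap5. To set neighbours in the cluster against each other, the difference of their values was taken on each array, from which the centring drops out of the genotype comparison. Gimap4 minus Gimap6 was -0.25, -0.39 and -0.31 on the Dicer WT arrays and 0.08, 0.10 and 0.30 on the Dicer KO arrays. The genotypes did not overlap, so Gimap4 gained on Gimap6 by 0.47 on average. Gimap4 also gained on Gimap9, its other neighbour: Gimap9 minus Gimap4 was 0.27, 0.30 and 0.46 in Dicer WT and -0.25, -0.27 and -0.22 in Dicer KO. Gimap7 minus Gimap1 was -0.60, -0.56 and -0.14 in Dicer WT and 0.10, -0.02 and 0.15 in Dicer KO, a shift of 0.50 with no overlap. The other 4 neighbouring pairs overlapped between genotypes, among them Gimap6 minus Gimap7, which was 0.68 and 0.64 on Dicer WT 1 and 2 but -0.14 on Dicer WT 3. Gimap5 minus Gimap3, the pair most alike in sequence, shifted by 0.12, with means of -0.13 ± 0.26 (SD) in Dicer WT and -0.01 ± 0.16 in Dicer KO. These contrasts were not tested, and the labels do not say which bases the probes of related members cover, so signal shared between them cannot be told apart.

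The median over the 8 genes was -0.12, -0.17 and -0.31 in the Dicer WT samples and 0.40, 0.25 and 0.09 in the Dicer KO samples. Dicer WT 3 and Dicer KO 3 were the lowest arrays of their genotypes. Without both, 5 Gimap genes were called, now with Gimap3 and without Gimap9 (adjusted p = 0.0498 and 0.0522), and the median difference was 0.45. Of the 19935 genes, 1670 were called in that fit and 1741 with all arrays. The genes nearest to the mean profile of the family, by root mean square difference over the 6 arrays, were Fem1c (0.05), Nin (0.05), Osbpl9 (0.05), Son (0.05) and Fam3c (0.06). Fem1c encodes a substrate receptor of a ubiquitin ligase, Nin the centrosomal protein ninein, and Son a splicing cofactor. They were picked on these same values, so differences of 0.46 to 0.55, near the family mean of 0.52, follow from the choice. All 5 were called with the full set of arrays, which the choice also favours. Nin and Fam3c were also called with each array omitted, whereas Fem1c, Osbpl9 and Son were not called without Dicer KO 2 (adjusted p up to 0.0835).

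Of the 10 named protein-coding genes on each side of the cluster, 1 rose and 1 fell, beside 5.94% and 2.79% of all genes, so these counts are close to the background. The median difference of the 20 was -0.03. The one that rose was Tmem176b, which encodes a membrane protein related to the MS4A family and lies next to Gimap3 among the named protein-coding genes. Its Dicer WT arrays read -0.57, -0.32 and -0.80 and its Dicer KO arrays 0.36, 0.69 and 0.32. The genotypes were well apart, and the difference of 1.01 ± 0.14 (limma adjusted p = 0.00716) exceeded that of any Gimap gene and was called with each array left out. Its neighbour Tmem176a, at 0.22 ± 0.13, did not pass (limma adjusted p = 0.411), with arrays of -0.22, -0.42 and 0.10 in Dicer WT and -0.10, 0.10 and 0.13 in Dicer KO. On the other side Zfp775, next to Gimap8, gave -0.11 ± 0.09 (limma adjusted p = 0.602). Krba1 fell by 0.25 (limma adjusted p = 0.0459), a call lost without any 1 of the 6 arrays (adjusted p 0.0534 to 0.147). Of the neighbours, 19 of 20 were in the lower level class, unlike the Gimap genes.

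**Figure D4:**
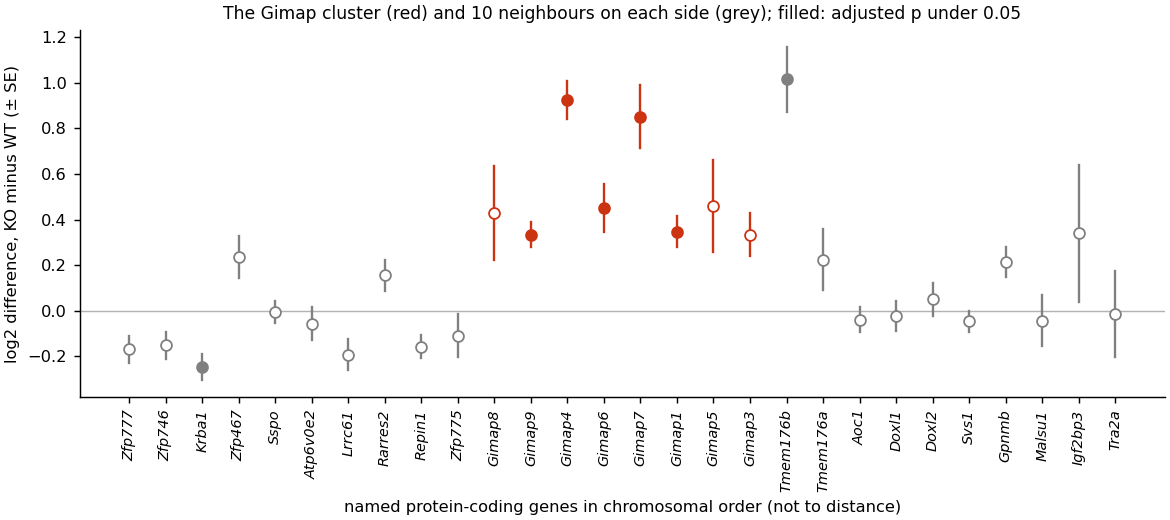
Log2 difference between Dicer KO and Dicer WT with its SE (vertical axis) for the 8 Gimap genes (red) and 10 named protein-coding genes on each side (grey), in chromosomal order and not to distance; filled points passed an adjusted p of 0.05. The red points lie between 0.33 and 0.93; of the neighbours, Tmem176b lies above them at 1.01 and Igf2bp3, which did not pass, among them at 0.34 ± 0.30.

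Other GTPase families are given beside the Gimap genes without a test of the difference between families. Over all genes 5.94% were called higher and 2.79% lower. Of 8 interferon-inducible guanylate binding proteins, 7 rose, with a median of 1.37 over the 8, among them Gbp3 (1.74 ± 0.09), Gbp4 (1.33 ± 0.12), Gbp5 (1.55 ± 0.14) and Gbp7 (1.69 ± 0.20). Gbp2b, at 0.14 ± 0.06, lay below every Gimap gene and did not pass (limma adjusted p = 0.229). Of 4 immunity related GTPases measured 2 rose, Irgm1 (1.48 ± 0.16) and Iigp1 (3.11 ± 0.21), while Irgc1 (0.03 ± 0.05) and Irgq (0.02 ± 0.12) did not pass. Of these families Irgm2, Igtp, Tgtp1, Tgtp2, Gbp2, Gbp6 and Gbp10 had no row under their symbol alone. Septins, cytoskeletal GTPases with a fold related to the Gimap domain, had 3 of 12 higher and a median of 0.04. Septin2 rose by 1.07 ± 0.08 and was called in all 6 fits that left out 1 array. Septin6 (0.32 ± 0.06) was called in 2 of these fits and Septin9 (0.40 ± 0.07) in 3 (adjusted p up to 0.0876).

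BCL2 family genes, some promoting survival and some cell death, were higher in part. Whether their products act with the Gimap proteins in these cells was not tested. Of 11 BCL2 family genes measured, 4 rose, beside 5.94% of all genes called higher, with a median of 0.40. Bax, Bcl2a1a, Bcl2a1b and Bcl2a1d had no row under their symbol alone. The antiapoptotic Mcl1 rose by 0.74 ± 0.06 (limma adjusted p = 0.000982) with arrays of -0.31, -0.42 and -0.44 in Dicer WT and 0.35, 0.31 and 0.39 in Dicer KO. Bcl2l1, which encodes the survival protein BCL-XL, rose by 0.41 ± 0.08, the proapoptotic Bcl2l11 by 0.49 ± 0.08 and the proapoptotic Bmf by 0.52 ± 0.11. Omitting Dicer WT 1 or Dicer KO 2 ended the calls of these last 3 (adjusted p up to 0.0885) and left 1 gene called, Mcl1. Of the 6 fits with 1 array left out, Bcl2l1 was called in 3, Bcl2l11 in 4 and Bmf in 2. Bcl2 itself, at 0.40 ± 0.17, did not pass (limma adjusted p = 0.225), and like Gimap5 its arrays overlapped, with 0.01, -0.13 and -0.58 in Dicer WT and 0.41, 0.12 and -0.01 in Dicer KO.

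Of 8 genes of cytokine survival signalling, 4 rose, beside 5.94% of all genes, and the median was 0.40. Of the 8, 6 were in the higher level class, in which 19.5% of genes were called higher. The kinase Jak1 (0.68 ± 0.08), the receptor chains Il4ra (0.73 ± 0.08) and Il15ra (0.40 ± 0.06) and the transcription factor Stat5b (0.33 ± 0.07) rose. Stat5b kept its call when Dicer KO 3 was omitted and lost it when any of the remaining 5 was (0.0607 to 0.102). The interleukin 7 receptor Il7r, the main survival receptor of resting T cells, was at 0.47 ± 0.18 and did not pass (limma adjusted p = 0.185). Of 13 autophagy genes 1 was called, near the 5.94% of all genes called higher. It was the kinase gene Ulk1 (0.21 ± 0.05, limma adjusted p = 0.047), a call lost without any 1 of the arrays (adjusted p 0.0716 to 0.161). The median of that list was 0.03, and Gabarapl2, the partner of Gimap6, was at 0.41 ± 0.14 (limma adjusted p = 0.149).

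**Figure D5:**
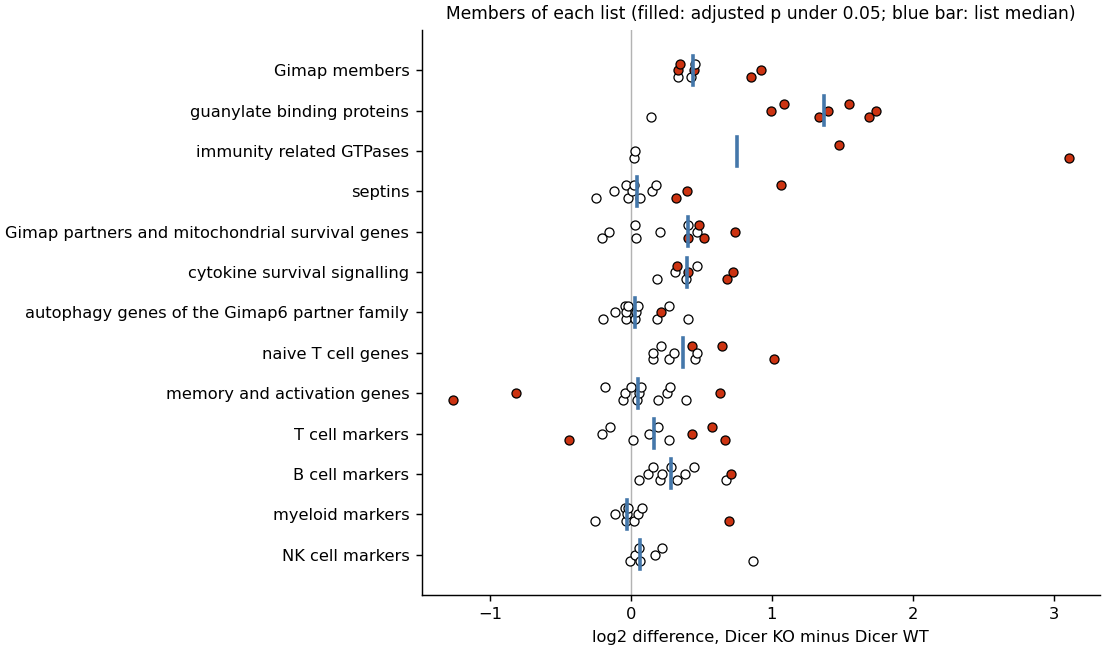
Log2 difference between Dicer KO and Dicer WT (horizontal axis) for each measured gene of 13 lists (vertical axis), with filled points past an adjusted p of 0.05 and a blue bar at each list's median. The Gimap genes lie together between 0.33 and 0.93, the guanylate binding proteins are mostly to their right, and the septin, autophagy and myeloid medians are near 0.

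Markers of T cell states and of other cells were counted in the same fit, in which 5.94% of all genes were higher and 2.79% lower. Of 10 naive T cell genes, 3 rose, Igfbp4 (1.01 ± 0.07), the homing receptor Ccr7 (0.64 ± 0.07) and the repressor Bach2 (0.44 ± 0.07), all 10 had positive differences, and the list medians were -0.05, -0.07 and -0.33 in Dicer WT and 0.27, 0.23 and 0.05 in Dicer KO. Bach2 was not called once Dicer WT 1 or Dicer KO 2 was omitted (adjusted p up to 0.0615). Of 14 memory and activation genes, 1 rose, Cd69 (0.63 ± 0.11), and 2 fell, Crip1 (-1.26 ± 0.24) and Id2 (-0.82 ± 0.15). Omitting Dicer WT 1 or Dicer WT 2 left 1 of them called, Cd69, and omitting Dicer KO 2 ended all 3 calls (adjusted p up to 0.0821). Cd44, a memory marker, was at 0.28 ± 0.14 (limma adjusted p = 0.304). All 10 naive genes, like all 10 T cell markers given next, were in the higher level class, in which 19.5% of genes were called higher. The cells were sorted as CD62L-, a gate that would remove naive cells bearing CD62L, and the part of any remaining mix of naive and memory cells in the Gimap differences was not tested. Of 10 T cell markers, 3 rose, Cd4 (0.67 ± 0.07), the adhesion receptor Cd2 (0.57 ± 0.06) and Thy1 (0.44 ± 0.09), and 1 fell, Cd5 (-0.44 ± 0.06), which encodes a damper of receptor signalling. The call of Thy1 ended when array 1 or 2 of either genotype was omitted (adjusted p up to 0.126).

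B cells also express Gimap genes, and the medians of 11 B cell markers were -0.45, 0.02 and -0.20 in Dicer WT and 0.18, 0.05 and 0.08 in Dicer KO, with all 11 differences positive. Of these markers 1, Bank1, rose (0.71 ± 0.11), a count near the 5.94% of all genes called higher. It was not called without Dicer KO 2 (adjusted p = 0.0515), while 4 markers were called without Dicer WT 2. The lowest B cell medians were those of Dicer WT 1 and Dicer WT 3. With both omitted, the median Gimap difference was 0.34 and all 8 were positive. The largest were those of Gimap7 (0.98) and Gimap4 (0.88). Dicer WT 2 is then the lone Dicer WT array, whose spread cannot be measured, so no calls are given for this fit. Of 10 myeloid markers 1, Lyz2, rose (0.69 ± 0.12), also near the share over all genes, and the list median was -0.02. The call of Lyz2 ended when Dicer WT 1 or Dicer KO 2 was omitted (adjusted p up to 0.0699). Of 7 natural killer markers limma called 0, with 2 higher at an unadjusted p under 0.05, Gzma (0.22 ± 0.05) and Klrd1 (0.87 ± 0.30), and Klrd1 was called without Dicer KO 3 (adjusted p = 0.00581). Of the CD8 genes Cd8a (-0.09 ± 0.18) and Cd8b1 (-0.26 ± 0.07) limma called 0, and Cd8b1 alone had an unadjusted p under 0.05; it was called without Dicer KO 1 (adjusted p = 0.0315).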

How the data were processed

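Expression was measured on 6 MoGene 1.0 ST arrays, 3 per genotype. The authors deposited 1 table of log2 values (28815 rows, base not stated and read as 2); MAS5 is named without a role in the submitters' processing notes, and no source used here states the scaling. Row medians were 0 to within 5e-07, so no filter on level, quantile normalization or pseudocount was applied. Rows were named by GEO's platform annotation: 21780 had 1 symbol, 1605 several and 5430 were unnamed here, and 21689 matched RefSeq (GRCm38.p6) by gene ID. Rows of a gene were averaged, giving 19935 genes. Genotypes were compared with limma 3.58.1 in R 4.3.3 (lmFit, eBayes, Benjamini-Hochberg over all genes); the procedure was tested on simulated data. SEs are from that fit and SDs over arrays. The number of arrays limits precision.

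The members and the gene lists were chosen with earlier results of these data known, so list counts are descriptions. Named genes are all members; up to 4 called genes per list by lowest p, or up to 2 where none passed; called neighbours and those next to the cluster; the 5 genes nearest to the members' mean profile; and Dicer1, Cd4 and Cd44 as checks of the labels. Others named were chosen after their values were seen. Alternatives left out each array, added a replicate block, array weights, other centring, row handling or priors, and kept higher-level genes only. Others left out 2 arrays at once, picked from the B cell marker values or the second principal component of these same data.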

Additional observations from a re-analysis of the deposited data

How the results depend on the processing

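All 8 Gimap differences stayed positive in each alternative in which they were fitted (134 of 134 combinations). The replicate block, row handling, the other prior and the higher-level subset could not change a difference, so their signs were fixed in advance. Only left-out arrays, array weights and other centring could move a difference. In all, 14 calls were lost and 6 gained, counting the fit with a lone Dicer WT array. The count of 5 Gimap genes called ran from 2 (Dicer KO 2 omitted) to 6 (Dicer KO 3 omitted) with 1 array left out, and was 3 when Dicer WT 1, Dicer WT 2 or Dicer KO 1 was omitted. Over all genes the 1741 calls became 849, 1050 and 729 on omitting Dicer WT 1, Dicer WT 2 and Dicer KO 2 in turn. Fewer arrays enter those fits. With the replicate block there were 2063 calls and with array weights 2537. Among the 3508 higher-level genes alone, where fewer genes are tested, 1063 were called, a larger share than over all genes. The median Gimap difference ran from 0.34 to 0.56 over the alternatives. With 1 array left out, called counts ran from 1 to 4 for BCL2 family genes, 1 to 3 for septins, 0 to 4 for memory genes, 0 to 4 for B cell markers, and 0 to 1 for myeloid, natural killer and CD8 markers; the 1 autophagy call fell to 0 and the 2 neighbour calls to 1. Centring arrays on their median also left 1 neighbour called; the cause was not tested. The labels name no pairing, so the numbers were not taken as pairs. Deviations of same-numbered arrays correlated at 0.27, -0.08 and 0.30 for numbers 1, 2 and 3. Dicer KO arrays of other numbers gave -0.24 to -0.04, -0.17 to 0.23 and -0.37 to 0.09 against Dicer WT 1, 2 and 3. The own number thus correlated best for Dicer WT 1 and Dicer WT 3 but not for Dicer WT 2. With the replicate block, 7 Gimap genes were called, Gimap3 (limma adjusted p = 0.0306) and Gimap5 (0.00868) in addition. The planned filter on mean levels needs levels and was not run.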
